A study of Arabidopsis thaliana with 6 samples.

Results

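Berberine bridge enzyme-like genes encode a family of secreted flavoproteins, and 8 of them were followed here in Arabidopsis thaliana petioles, the stalks that carry the leaf blades. They are 8 of the 13286 genes that had a probe set listed with 1 gene on the array. AT1G26380 and AT4G20830 were picked because their levels were higher in the dense canopy, so their difference between the groups is given as a description with no test. The other 6 (AT1G26390, AT1G26400, AT1G26410, AT1G26420, AT1G30700 and AT4G20860) were listed as relatives of these. Each gene had 1 such probe set, and 14 further family genes were read in the same way.

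The 6 arrays fall into dense-canopy plants (3 arrays), set at 2066 plants per m2 right after transfer to pots, and single plants (3 arrays), whose pots were kept apart. All plants had 9 h of light a day (15 h of darkness) and a temperature of 20°C. They were potted individually at 10 days and harvested at about 23 days. The labels give a leaf area index of 0.9, the area of leaves over each unit of ground, for both groups. A planting density is given for the canopy only, so equal leaf cover in the groups cannot be read from this index. Each array held RNA of a pool of 2 young petioles from each of 4 plants, so plant-to-plant spread within a pool was not seen. The labels name no genotype or accession line. The comparison asks which petiole transcripts differ when plants grow among close neighbours.

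Enzymes of this family are named after the berberine bridge enzyme of alkaloid-making plants. They carry covalently bound FAD, oxidise alcohol or sugar groups of their substrates and pass the electrons to oxygen or another acceptor, which can release hydrogen peroxide in the cell wall. In Arabidopsis, some members oxidise cell-wall fragments that act as danger signals, others oxidise the precursors of lignin, and AT1G26380 acts in the synthesis of a defence compound.

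AT4G20830, known as OGOX1, oxidises oligogalacturonides, fragments of pectin that elicit immune responses, and thereby weakens them as signals. Its level was 3.89, 3.89 and 3.64 in the canopy petioles and 2.59, 3.12 and 2.86 in the single-plant petioles (log2, replicates 1, 2 and 3). The groups did not overlap, and the lowest canopy array stood 0.52 above the highest single-plant array. On average it stood at 3.81 ± 0.14 in canopy petioles and 2.86 ± 0.26 in those of single plants (SD, n = 3 each, log2), a difference of 0.95 ± 0.14 (log2, SE), or 1.93-fold. Every SE of a difference given here is the moderated one of the limma fit. It draws on the spread of all probe sets and does not follow from the SDs of the gene alone.

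AT1G26380, known as FOX1, takes part in the synthesis of a hydroxylated indole carbonyl nitrile made in response to pathogens, and its transcript is widely used as a marker of elicitor response. Its level was 1.83, 1.84 and 1.89 in the canopy petioles and 0.97, 1.27 and 1.03 in the single-plant petioles (log2, replicates 1, 2 and 3). The canopy arrays lay within 0.059 of each other, the single-plant arrays within 0.30, and 0.56 separated the groups. On average it stood at 1.85 ± 0.03 in canopy petioles and 1.09 ± 0.16 in those of single plants (SD, n = 3 each, log2), a difference of 0.76 ± 0.10 (log2, SE), or 1.69-fold. The single-plant levels were close to the lower quartile of all probe sets, 0.87. The effect of this low level, or of the choice on this contrast, on the fold change was not tested. Single replicate 2 was the highest and single replicate 1 the lowest single-plant array for both genes.

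**Figure D1:**
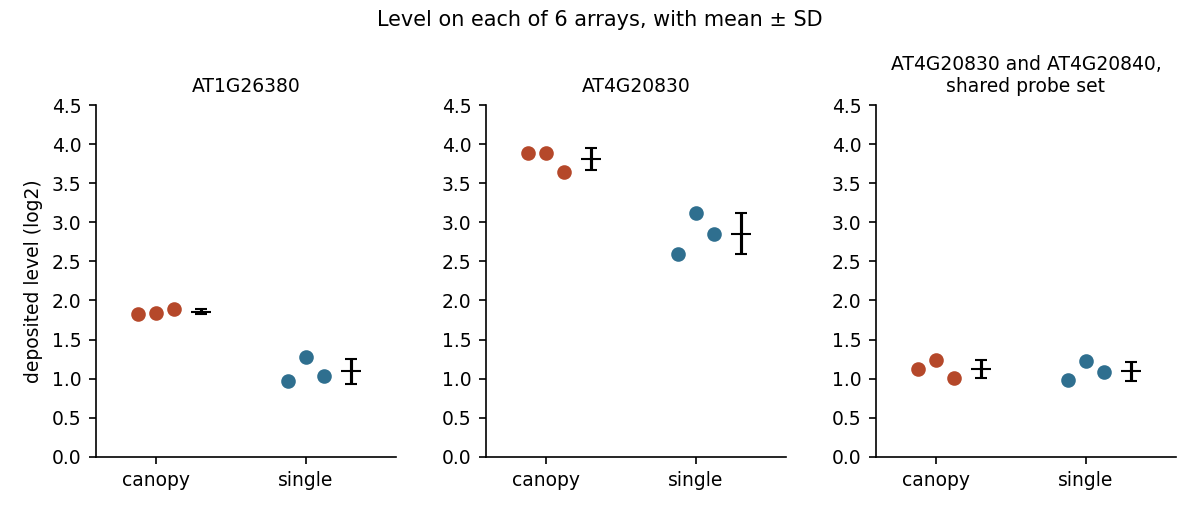
Deposited level (log2) on each canopy and single-plant array for AT1G26380, AT4G20830 and the probe set listed with both AT4G20830 and AT4G20840, with points for arrays and bars for mean ± SD (n = 3). The canopy arrays of AT1G26380 (1.83 to 1.89) and AT4G20830 (3.64 to 3.89) lay above all single-plant arrays, and those of the shared probe set did not.

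A second probe set is listed with AT4G20830 and with its neighbour AT4G20840, known as OGOX2, another oligogalacturonide oxidase. It read 1.12, 1.24 and 1.01 in canopy petioles and 0.98, 1.22 and 1.09 in single plants (log2, replicates 1, 2 and 3). These groups overlapped, and the difference was 0.03 ± 0.10 (log2, SE), with a 95% interval from -0.21 to 0.26 and a limma adjusted p of 0.96. The mean of both probe sets differed by 0.49 between the groups, against 0.95 for the 1-gene probe set alone. Which of the genes the shared probe set reads was not settled, and the difference between the probe sets was not tested. The RefSeq gene table also places AT4G20835 within the span of AT4G20830 and gives no strand, so a part of that transcript in either probe set was not tested.

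Over the whole array, 97 of 22746 probe sets passed as higher in the canopy (0.426%) and 57 as lower (0.251%; limma, Benjamini-Hochberg adjusted p under 0.05). Of the 8 genes, AT1G26380 and AT4G20830 were among those higher, which is how they were chosen, and 0 were lower. The call that chose them depended on which arrays entered, which describes the choice and is no test of either gene. It fell on 0 of the 2 with a replicate block, on 0 of the 2 without single replicate 1, 2 or 3 or without canopy replicate 2, and on AT1G26380 alone without canopy replicate 1. Over all probe sets the calls higher in the canopy then also went from 97 to 39 with the block. They were 30, 16 and 26 without single replicate 1, 2 and 3, 32 without canopy replicate 2 and 94 without canopy replicate 1.

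Of the 6 relatives 0 passed (limma) and 0 reached an unadjusted p under 0.05, which 12.2% of all probe sets reached. Their adjusted p lay between 0.76 and 0.94, their differences between -0.09 and 0.08 (log2), and their 95% intervals between -0.29 and 0.33. All 6 had a mean level at or below the lower quartile of all probe sets, whereas AT1G26380 and AT4G20830 lay above it. No detection calls were used, so a transcript below the reach of the array cannot be told apart from one that did not change.

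AT1G26380 heads a row of 5 family genes that lie next to each other on chromosome 1, followed by AT1G26390, AT1G26400, AT1G26410 and AT1G26420. AT1G26390 read 0.56, 0.70 and 0.73 in canopy petioles and 0.76, 0.76 and 0.75 in single plants (log2). Its groups did not overlap, with the canopy lower by 0.09 ± 0.09 (log2, SE; limma adjusted p = 0.76), as was so for 9.3% of all probe sets. AT1G26400 read 0.83, 0.65 and 0.83 in canopy petioles and 0.84, 0.75 and 0.61 in single plants (log2), with overlapping groups. AT1G26410 read 0.63, 0.66 and 0.93 in canopy petioles and 0.76, 0.63 and 0.60 in single plants, and AT1G26420 read 0.74, 0.66 and 1.05 against 0.66, 0.85 and 0.77 in single plants (log2). Canopy replicate 3 was the highest array for AT1G26410 and AT1G26420, and without it their differences were -0.02 and -0.06 (log2).

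AT4G20860, known as CELLOX1, oxidises cellodextrins, short fragments of cellulose. It read 0.82, 0.84 and 0.80 in canopy petioles and 0.66, 0.96 and 0.63 in single plants (log2), and single replicate 2 lay above all canopy arrays. The difference was 0.07 ± 0.11 (log2, SE; limma adjusted p = 0.86). AT4G20870 overlaps this gene in the RefSeq table. AT1G30700, first of a second row on chromosome 1, read 0.70, 0.94 and 0.67 in canopy petioles and 0.85, 0.77 and 0.86 in single plants (log2). Its groups overlapped, and it differed by -0.06 ± 0.10 (log2, SE; limma adjusted p = 0.90).

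**Figure D2:**
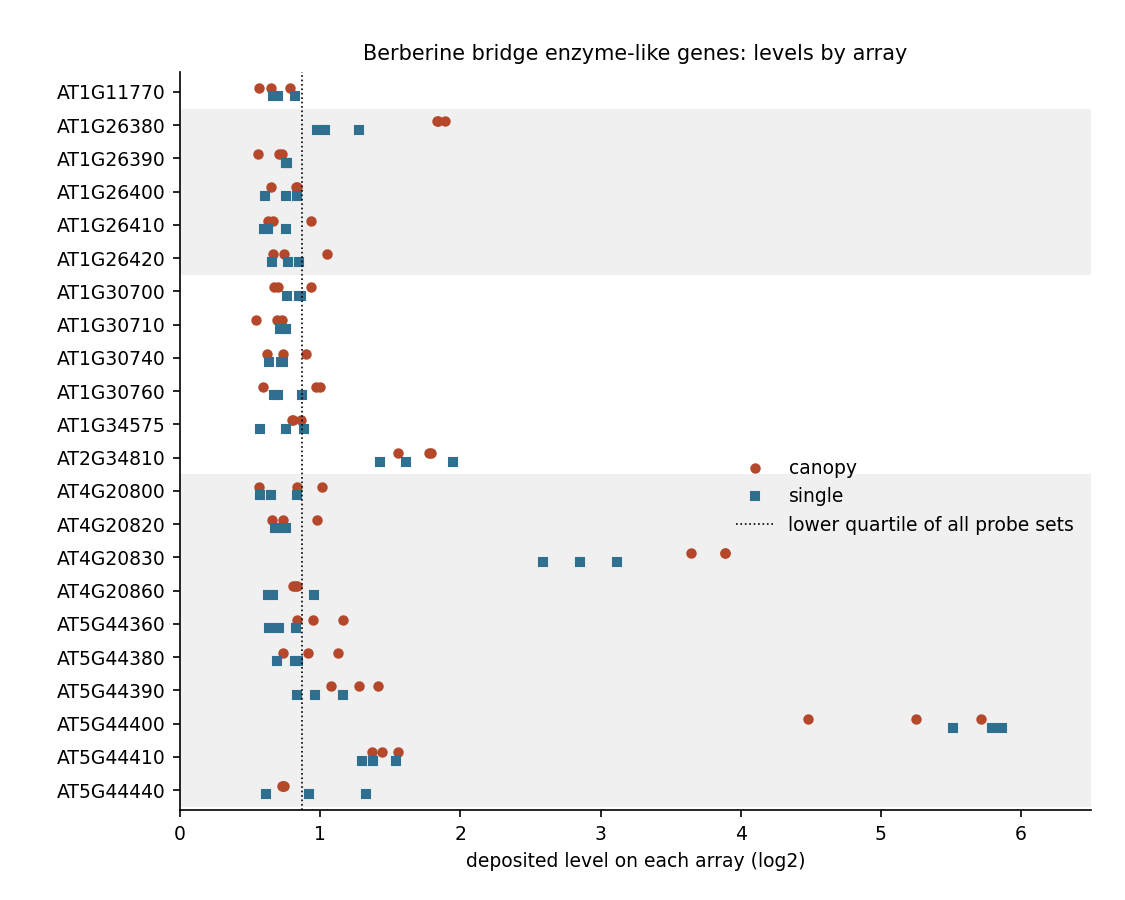
Deposited level (log2) on each array for the 22 family genes with a 1-gene probe set, ordered by locus, with circles for canopy and squares for single-plant arrays. Grey bands mark the neighbouring genes of AT1G26380, AT4G20830 and AT5G44400, and 16 of the 22 genes have a mean at or below the dotted lower quartile of all probe sets (0.87).

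The Arabidopsis family list drawn up here has 27 genes, of which 22 had a 1-gene probe set, 3 a probe set shared with another member and 2 no probe set listed here. Beside AT1G26380 and AT4G20830, 0 of the other 20 genes passed in either direction (limma). An unadjusted p under 0.05 was reached by 1 of the 20, against 12.2% of all probe sets. Their median difference was 0.06 (log2), against -0.003 over all probe sets. In the canopy 14 of the 20 had the higher mean and 6 the lower, against 49.0% of all probe sets with the higher mean. Among all probe sets at or below the lower quartile, where 16 of the 20 lay, 58.6% had the higher mean in the canopy.

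AT5G44400 read well above the lower quartile on all 6 arrays. Its level was 5.72, 4.48 and 5.25 in canopy petioles and 5.79, 5.86 and 5.51 in single plants (log2, replicates 1, 2 and 3). Canopy replicate 1 lay inside the range of the single-plant arrays, and canopy replicates 2 and 3 lay below it. On average it stood at 5.15 ± 0.62 in canopy petioles and 5.72 ± 0.19 in those of single plants (SD, n = 3 each, log2). The difference of -0.58 ± 0.27 (log2, SE) did not pass (limma adjusted p = 0.43), with a 95% interval from -1.18 to 0.03. It was -0.24 without canopy replicate 2 and -0.86 without canopy replicate 1.

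AT5G44400 lies in a row on chromosome 5 with AT5G44360, AT5G44380, AT5G44390, AT5G44410 and AT5G44440. AT5G44360, known as CELLOX2 and also active on cellodextrins, read 0.95, 0.84 and 1.16 in canopy petioles and 0.63, 0.70 and 0.82 in single plants (log2). It was the one gene of the other 20 whose canopy arrays all lay above the single-plant arrays, as they did for 7.71% of all probe sets. It differed by 0.26 ± 0.11 (log2, SE; unadjusted p = 0.041, limma adjusted p = 0.38), at a mean level below the lower quartile.

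AT5G44390 read 1.28, 1.08 and 1.41 in canopy petioles and 0.83, 1.16 and 0.96 in single plants (log2), with overlapping groups and a difference of 0.27 ± 0.12 (log2, SE; limma adjusted p = 0.42). AT5G44380 read 0.92, 1.13 and 0.74 in canopy petioles and 0.69, 0.82 and 0.84 in single plants (log2), also with overlap. AT5G44410 averaged 1.45 ± 0.09 in canopy petioles and 1.41 ± 0.13 in single plants (log2, SD, n = 3 each), with overlapping groups. AT5G44440, linked to growth under salt stress, read 0.73, 0.74 and 0.73 in canopy petioles and 0.92, 0.61 and 1.33 in single plants (log2). Its canopy arrays were close together and its single-plant arrays spread on both sides of them (limma adjusted p = 0.67).

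AT2G34810, also above the lower quartile, stood at 1.79, 1.55 and 1.78 in canopy petioles and 1.61, 1.95 and 1.43 in single plants (log2). It differed by 0.05 ± 0.14 (log2, SE; limma adjusted p = 0.94). AT1G30760, an enzyme that oxidises monolignols, the alcohols from which lignin is built, read 0.60, 1.00 and 0.97 in canopy petioles and 0.67, 0.87 and 0.70 in single plants (log2; limma adjusted p = 0.82). AT1G11770, known as OGOX4, of the oligogalacturonide oxidases, read 0.57, 0.65 and 0.78 in canopy petioles and 0.66, 0.82 and 0.70 in single plants (log2; limma adjusted p = 0.87). Both had overlapping groups. The remaining genes, AT1G30710, AT1G30740, AT1G34575, AT4G20800 and AT4G20820, differed by -0.09 to 0.12 (log2), all with overlapping groups and mean levels at or below the lower quartile. The probe set shared by AT1G30720 and AT1G30730 differed by -0.06 ± 0.10 (log2, SE; limma adjusted p = 0.89).

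**Figure D3:**
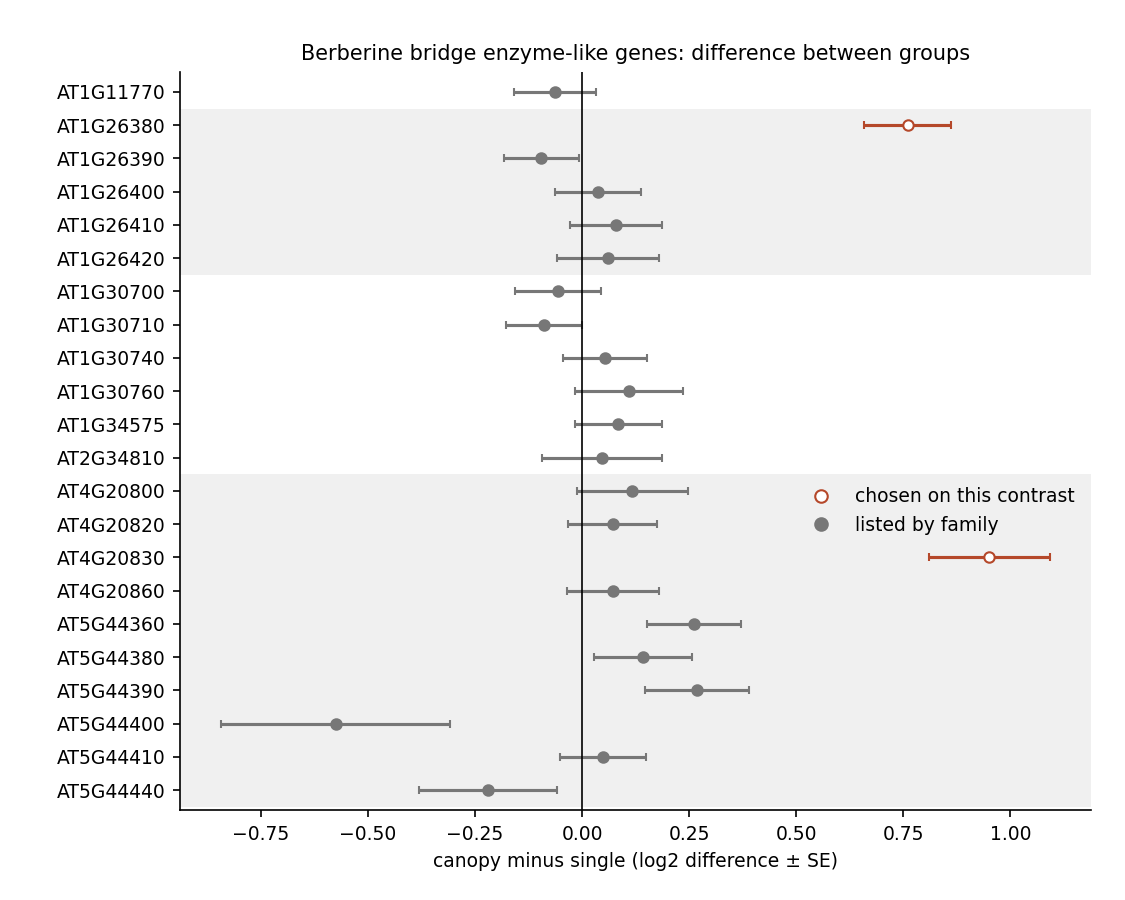
Difference of canopy minus single-plant means (log2 ± moderated SE of the limma fit, n = 3 per group) for the 22 family genes, ordered by locus. AT1G26380 and AT4G20830 (open circles, chosen on this contrast) lie at 0.76 and 0.95, and AT5G44400 at -0.58 has the widest error.

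The rows of family genes allow a look at their chromosomal neighbours. Of 22 protein-coding genes outside the family that lie inside these 4 rows or up to 4 genes to either side and had a 1-gene probe set, 0 passed (limma) and 4 reached an unadjusted p under 0.05, against 12.2% of all probe sets. These 4 are named because of their values. AT1G30690, beside the row of AT1G30700, read 3.86, 3.56 and 3.46 in canopy petioles and 4.13, 3.93 and 3.86 in single plants (log2). Its canopy arrays all lay below the single-plant arrays, as was so for 9.3% of all probe sets. The difference was -0.35 ± 0.13 (log2, SE; limma adjusted p = 0.30). CML42, a calmodulin-like protein gene beside the row of AT4G20830, read 2.99, 3.40 and 3.34 in canopy petioles and 2.68, 2.94 and 3.08 in single plants (log2), with overlap and a difference of 0.34 ± 0.14 (log2, SE; limma adjusted p = 0.38). TPP2, a tripeptidyl peptidase between AT4G20840 and AT4G20860, read 5.46, 5.64 and 5.73 in canopy petioles and 5.31, 5.41 and 5.36 in single plants (log2). Its canopy arrays all lay above the single-plant arrays, as was so for 7.71% of all probe sets. It differed by 0.25 ± 0.10 (log2, SE; limma adjusted p = 0.35). PDF1.2, a plant defensin between AT5G44410 and AT5G44440, read 6.15, 6.88 and 2.82 in canopy petioles and 1.34, 3.17 and 4.03 in single plants (log2). It differed by 2.44 ± 1.00 (log2, SE), with overlapping groups and an adjusted p of 0.37 (limma). Canopy replicate 3 was its lowest canopy array, as for AT4G20830, and the highest canopy array of AT1G26380. The canopy arrays of PDF1.2 lay between 2.82 and 6.88, whereas those of AT4G20830 spanned 0.24 and those of AT1G26380 0.059 (log2). No likeness or contrast is read from the order of arrays that close.

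Pathways around these enzymes were followed with 5 lists of 189 genes in all, drawn up with earlier results on some of their genes known. A gene counted as measured if the annotation listed a 1-gene probe set for it. As 8730 probe sets had no listed gene, the other genes may still be on the array. The measured genes therefore do not stand for a whole list. Of the 45 genes of pectin, from which the substrate of AT4G20830 is released, 16 were measured, 0 rose, 1 fell and 15 did not pass (limma, all probe sets). An unadjusted p under 0.05 was reached by 6 of the 16, against 12.2% of all probe sets. Without overlap, 5 were higher in the canopy and 4 lower, against 7.71% and 9.3% of all probe sets. The gene that fell was AT3G53190, of the pectin lyase-like proteins, whose decrease was known when it was listed. The counts above include it. AT3G53190 read 2.56, 2.28 and 2.01 in canopy petioles and 3.47, 3.98 and 3.40 in single plants (log2). Its difference of -1.33 ± 0.18 (log2, SE) is given as a description with no test. The call fell on it with all arrays, but not without single replicate 1, 2 or 3 or canopy replicate 2, which describes the choice.

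AT5G20740, a pectin methylesterase inhibitor, differed by -0.67 ± 0.16 (log2, SE) and read 3.18, 3.01 and 2.52 in canopy petioles and 3.68, 3.43 and 3.60 in single plants. AT1G67750, a pectate lyase, differed by -0.55 ± 0.14 (log2, SE) and read 4.95, 5.16 and 5.24 in canopy petioles and 5.39, 5.73 and 5.87 in single plants. Both had groups that did not overlap but missed the threshold (limma adjusted p = 0.13 and 0.14). The median difference of the 16 was 0.06 (log2), with 10 higher and 6 lower in the canopy.

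Of the 31 genes of indole nitriles and camalexin, the pathway of AT1G26380, 1 was measured. It was AT2G04400, the indole-3-glycerol phosphate synthase of tryptophan synthesis, at 5.28, 5.12 and 5.11 in canopy petioles and 4.58, 4.88 and 4.78 in single plants (log2). Its canopy arrays all lay above the single-plant arrays, as was so for 7.71% of all probe sets. The difference of 0.43 ± 0.11 (log2, SE) did not pass (limma adjusted p = 0.13). The P450 enzymes specific to the nitrile pathway were not analysed here.

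Of the 45 genes of elicitor and oligogalacturonide response, 4 were measured and 0 passed (limma). An unadjusted p under 0.05 was reached by 1 of the 4, against 12.2% of all probe sets. WRKY53, a WRKY factor that acts in senescence and immunity, read 2.39, 1.65 and 1.80 in canopy petioles and 1.12, 1.44 and 1.19 in single plants (log2). It differed by 0.69 ± 0.18 (log2, SE), with a limma adjusted p of 0.15. Its canopy arrays all lay above the single-plant arrays, as they did for 7.71% of all probe sets. Canopy replicate 1 was its highest array. For AT4G20830 canopy replicates 1 and 2 were level at 3.89 and replicate 3 was lower, and the canopy arrays of AT1G26380 were nearly level. The receptor-associated kinase gene BIK1 differed by 0.24 ± 0.12 and WRKY22 by 0.08 ± 0.08 (log2, SE; limma adjusted p = 0.48 and 0.79), both with overlapping groups.

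Of the 35 monolignol genes, 9 were measured, 0 passed and 1 had an unadjusted p under 0.05 (limma), against 12.2% of all probe sets. GT72B1, a glucosyltransferase acting on monolignols and xenobiotics, differed by 0.23 ± 0.10, UGT72E1 by 0.12 ± 0.08 and UGT72E2 by 0.16 ± 0.12 (log2, SE). Of the 33 genes of apoplastic peroxide, which make or consume the hydrogen peroxide these oxidases can release, 12 were measured and 0 passed (limma). Of these 12, 0 had an unadjusted p under 0.05, against 12.2% of all probe sets. The NADPH oxidase gene AT1G19230 differed by 0.18 ± 0.08 and the peroxidase genes AT5G39580 and AT2G41480 by 0.17 ± 0.09 and 0.16 ± 0.12 (log2, SE). In the canopy 11 of the 12 had the higher mean, with a median difference of 0.10 (log2). The higher mean was in the canopy for 49.0% of all probe sets and for 58.6% of those at or below the lower quartile, where 8 of the 12 lay.

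**Figure D4:**
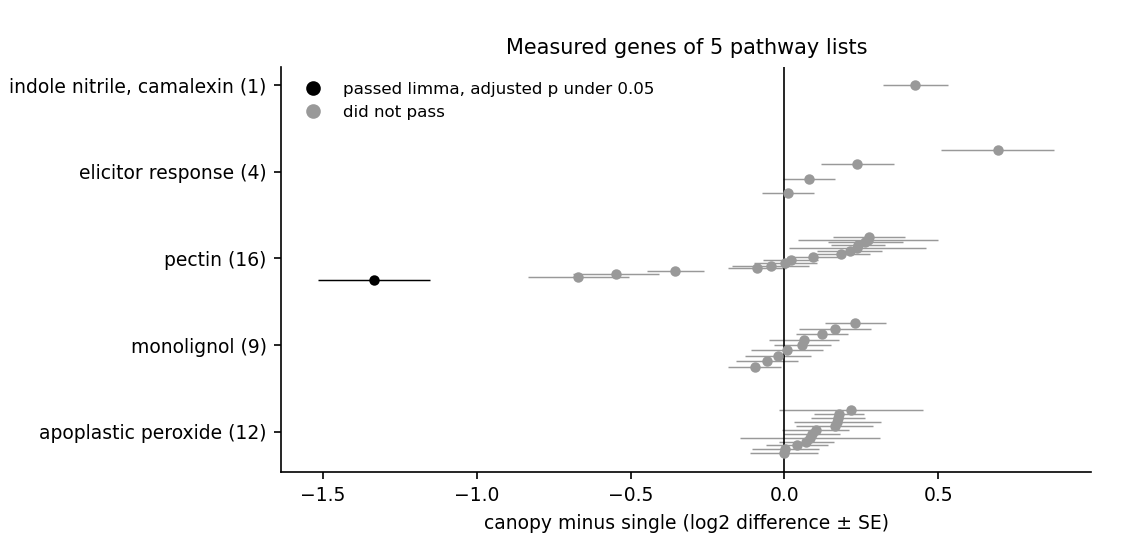
Difference of canopy minus single-plant means (log2 ± moderated SE of the limma fit, n = 3 per group) for the measured genes of 5 pathway lists, 1 point per gene. AT3G53190 of the pectin list, at -1.33, is the black point that passed limma, and its decrease was known when it was listed.

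The genes outside the family whose profiles were most like those of AT1G26380 and AT4G20830 were found by the root mean square difference of mean-centred levels over the 6 arrays. This uses the contrast on which the genes were chosen, so it is a description. Closest to AT1G26380 were AT5G37070 at 0.072, AT3G45620 at 0.089, AT1G31130 at 0.092, AT1G76240 at 0.093 and AT4G36500 at 0.10 (log2). AT5G37070 read 3.85, 3.83 and 3.75 in canopy petioles and 2.97, 3.38 and 3.03 in single plants (log2), with single replicate 2 the highest single-plant array, as for AT1G26380. Closest to AT4G20830 were AT1G32700 and AT3G45620 at 0.13 each, AT2G18690 and AT2G23680 at 0.13 each and AT5G37070 at 0.15 (log2). AT3G45620 and AT5G37070 were thus on both lists, and AT1G26380 and AT4G20830 lay 0.16 from each other.

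**Figure D5:**
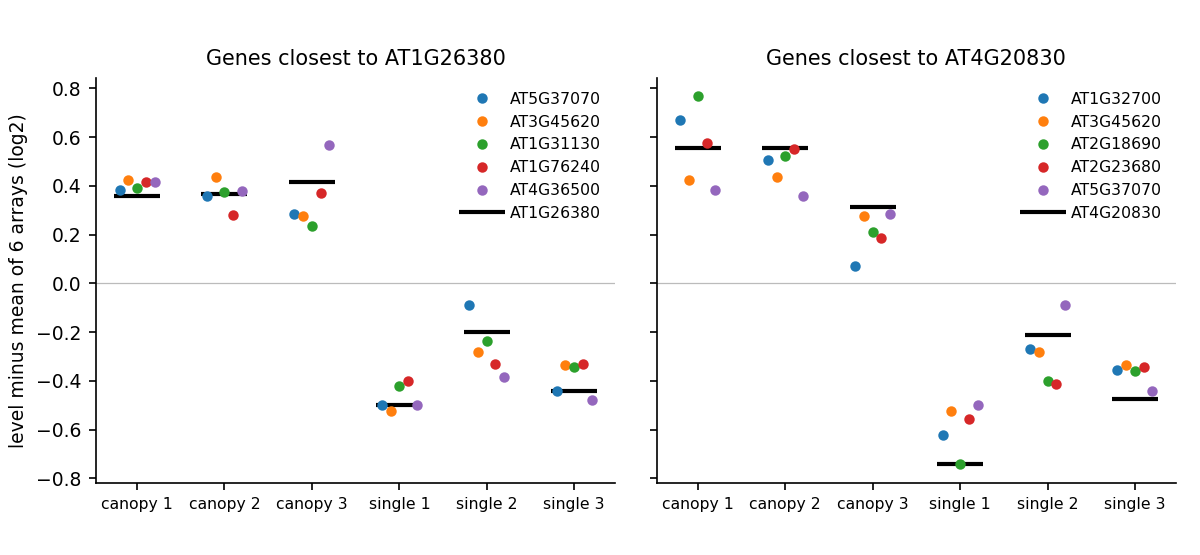
Level minus the mean of the 6 arrays (log2) for AT1G26380 and AT4G20830 (black bars) and the 5 genes closest to each (points). The points of all named genes lie above 0 on the canopy arrays and below 0 on the single-plant arrays.

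Over all probe sets, pairs of arrays had correlations of 0.990 to 0.994 inside a group and 0.987 to 0.991 across the 2 groups. Some technical controls moved with the groups. For an actin control, the 3′ probe set exceeded the 5′ one, a measure of RNA integrity, by 1.39 ± 0.11 in canopy petioles and by 1.64 ± 0.09 in those of single plants (SD, n = 3, log2), and of 6 such controls it was the 1 without overlap. Of the 4 poly-A spikes, 3 were lower in the canopy without overlap, with differences of -0.33 for dap, -0.18 for thr and -0.18 for phe (log2), and lys overlapped with a difference of 0.02 (log2). The spike dap read 3.39 ± 0.17 in canopy petioles and 3.72 ± 0.09 in those of single plants (SD, n = 3, log2). Of 21 marker genes of petiole and other cell types, 5 had a 1-gene probe set listed in the annotation. The green-tissue genes ATPC1 and PSBW had mean levels of 9.14 and 8.98 (log2). The guard-cell gene FAMA averaged 1.49 in canopy petioles and 1.28 in single plants, with overlap. The root-hair gene EXPA7 averaged 0.86 in canopy petioles and 1.03 in single plants (log2; limma adjusted p = 0.47). Its canopy arrays all lay lower, as was so for 9.3% of all probe sets. The meristem gene CLV3 averaged 0.66 in canopy petioles and 0.78 in single plants (log2), with overlap (limma adjusted p = 0.75). Their mean levels, 0.94 for EXPA7 and 0.72 for CLV3, were near or below the lower quartile of all probe sets, 0.87. The part of these differences in the levels of AT1G26380 and AT4G20830 was not tested. In such bulk samples, fewer cells of a type and less RNA per cell cannot be told apart.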

How the data were processed

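The deposited values are RMA expression values read as log2 levels, which the authors computed with R 2.15.0, per the submitters' processing notes. No source used here states the chip definition, the offset or the genome build. Each doubling of a hybridisation control's concentration added 1.09 to 1.15 units, close to a log2 scale. Array medians were 1.28 to 1.32, so the zero point is unknown. No scanner files or detection calls were used, and the number of arrays limits the precision.

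Of 22746 probe sets that are not controls, 13513 were listed with 1 gene in the platform annotation, 503 with several and 8730 with none. By gene number 13436 of the 13513 matched RefSeq (TAIR10.1), used for names and neighbours. All 22746 were tested with limma 3.58.1 (R 4.3.3, two-sided) for canopy minus single plants without a filter or block. The fit was also run on simulated data with independent noise and no array-wide shifts. That run does not bear on the differences of the technical controls between the groups. A gene with several probe sets was read from the one with the highest mean. Named were all family genes, the 3 genes of each list with the smallest p and the 5 genes nearest to AT1G26380 and to AT4G20830. The genes of the marker list were named as well, and AT1G30690, CML42, TPP2 and PDF1.2 after their values were seen. The members and lists were chosen with earlier results of these data known.

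Same-numbered arrays did not deviate together (correlations 0.0024, 0.099 and -0.064), so the replicate numbers were not taken as pairs. Alternatives were an intensity trend with robust moderation, a filter at the lower quartile, equal medians, quantile normalization done again, a replicate block, other probe set rules, another threshold and leaving out each array. The shared probe set as a reading of AT4G20830, and its mean with the 1-gene probe set, were added after the data were seen.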

Additional observations from a re-analysis of the deposited data

How the results depend on the processing

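The differences of AT1G26380 and AT4G20830 lay between 0.70 and 0.85 and between 0.82 and 1.08 (log2) over the alternatives run for all genes, their direction being fixed as their groups do not overlap. The call that chose AT1G26380 and AT4G20830 fell on 0 to 2 of them when 1 array was left out. It fell on 0 with the replicate block and on 2 otherwise, which describes the choice and is no test. Of the other 20 family genes, none passed under any alternative. Over all probe sets, leaving out 1 array gave 16 to 94 calls higher and 1 to 65 lower. The pectin list then had 0 to 1 gene that fell, AT3G53190, whose decrease was known when it was listed. The replicate block gave 39 calls higher and 24 lower, and an adjusted p under 0.1 gave 188 and 181. The intensity trend gave 151 higher. Leaving out 1 array turned the sign for AT1G26400 (-0.026 to 0.098), AT1G26410 (-0.016 to 0.14), AT1G26420 (-0.055 to 0.14), AT1G30740 (-0.019 to 0.12), AT2G34810 (-0.071 to 0.19), AT4G20820 (-0.022 to 0.14) and AT5G44410 (-0.0064 to 0.12), whose differences had not passed. The filter left no value for the 16 family genes at or below the lower quartile. The causes were not tested.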
